A study of Homo sapiens with 6 samples.

Results

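HIF1A and 9 genes of the hypoxia response were followed in PANC-1 cells with and without knockdown of METTL16. The 10 genes were taken by their symbols from a table of 58735 genes, and each symbol had a single row. They were HIF1A itself, its hydroxylases EGLN1 and EGLN3, and the HIF target genes CA9, VEGFA, NDRG1, BNIP3, ADM, ANKRD37 and KDM3A. PANC-1 is an established human cell line from a pancreatic ductal adenocarcinoma. RNA-seq was performed on 3 samples that received a control siRNA (si-NC) and 3 samples that received siRNA against METTL16 (si-METTL16), an RNA methyltransferase that writes N6-methyladenosine. The labels gave no other difference between the groups, although one label field described the si-NC samples as WT. All cells were grown in DMEM with serum, and no low-oxygen step was named for either group. The paper's methods call the sequenced cells stably transfected with siRNA. Their section on transfection instead names short hairpin RNA, lentiviral infection and puromycin selection for the silencing of METTL16. The paper's methods do not say which siRNA against METTL16 was used for sequencing. An effect of METTL16 loss and of that siRNA alone therefore cannot be told apart. The methods describe the samples of a group as biological triplicates without saying how the cultures were separated. The p-values set the difference of the groups against the spread between these samples, however separate the cultures were.

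HIF-1 is a pair of an alpha subunit, encoded by HIF1A, and a beta subunit, encoded by ARNT. When oxygen is present, the prolyl hydroxylases of the EGLN family modify the alpha subunit, the VHL ubiquitin ligase then binds it, and the proteasome degrades it. When oxygen is scarce the alpha subunit accumulates, enters the nucleus and induces genes of glycolysis, angiogenesis, pH control and mitophagy. EGLN1 and EGLN3 are HIF targets themselves, which forms a negative feedback. The control of the alpha subunit is mostly on the protein, which was not measured here. Pancreatic ductal adenocarcinoma is known as a poorly perfused tumour in which many of these genes are expressed.

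HIF binds the core letters ACGTG or GCGTG, and 4 promoters are shown because ADM and EGLN1 had the highest called fold changes of the 10 genes and BNIP3 and CA9 the lowest fold changes. Each is the stretch of 150 bases before the transcription start, 5′ to 3′ on the strand of the gene, from the RefSeq annotation of GRCh38.p14. Capitals mark ACGTG or GCGTG on either strand, so that CACGT and CACGC are matches on the other strand. ADM (chr11:10304923-10305072, plus strand), EGLN1 (chr1:231422288-231422437, minus strand), BNIP3 (chr10:131981924-131982073, minus strand) and CA9 (chr9:35673778-35673927, plus strand) read as follows.
ADM: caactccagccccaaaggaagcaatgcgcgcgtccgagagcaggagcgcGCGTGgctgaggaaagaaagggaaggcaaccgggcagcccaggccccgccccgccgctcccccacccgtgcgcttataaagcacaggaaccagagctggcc
EGLN1: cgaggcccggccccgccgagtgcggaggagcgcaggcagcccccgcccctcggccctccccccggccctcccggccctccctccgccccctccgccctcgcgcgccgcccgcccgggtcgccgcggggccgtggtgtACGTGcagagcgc
BNIP3: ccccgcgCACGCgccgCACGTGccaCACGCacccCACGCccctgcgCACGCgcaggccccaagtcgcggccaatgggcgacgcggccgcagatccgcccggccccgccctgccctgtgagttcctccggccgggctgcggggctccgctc
CA9: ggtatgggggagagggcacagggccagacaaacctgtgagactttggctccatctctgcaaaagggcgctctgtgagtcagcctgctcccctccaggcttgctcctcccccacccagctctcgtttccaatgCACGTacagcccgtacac
The ADM stretch held 1 match, GCGTG starting at base -101, and the EGLN1 stretch held 1 match, ACGTG starting at base -13. CA9 held 1 match, CACGT starting at base -18. BNIP3 held 6 matches that started between bases -143 and -104, of which CACGT at -134 and ACGTG at -133 are the same CACGTG read on each strand. RefSeq windows from 250 bases before to 50 bases after the start were searched for 8 of the 10 genes, and 7 of these had at least 1 match. VEGFA had no such window, and NDRG1 was left out of the search. Matches of this length are common, since 48.4% of 35114 promoter windows of 300 bases held ACGTG or GCGTG and 61.1% of the windows of tested genes did. A match describes letters and not a bound site.

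The counts of a sample summed to between 15725298 and 18054436, and levels of a gene are given in CPM, its counts relative to the TMM-scaled total of the sample. Before that scaling, 3 counts were worth 0.166 to 0.191 CPM, depending on the sample. Such a floor covers counting error only. METTL16 was measured first. Its level was 91.5, 96.7 and 101 CPM in the si-NC samples and 34.8, 33.9 and 34.9 CPM in the si-METTL16 samples, which left 35.9% of the control level by the fitted fold change (log2 fold change -1.48, SE 0.069, adjusted p 8.34e-05 from the quasi-likelihood test of edgeR, adjusted after Benjamini and Hochberg). Unless another setting is named, every adjusted p below comes from the same fit over 15089 genes with enough counts. A gene is called when its adjusted p is under 0.05. Of those genes, 35.9% were called, 18.4% as higher and 17.5% as lower in si-METTL16 samples. The carcinoma markers KRT8 and KRT18 were abundant in both groups, with means of 2139 and 1146 CPM in si-NC and of 1827 and 1312 CPM in si-METTL16 samples, the endothelial markers PECAM1 and VWF had 0 to 3 counts in a sample, and CDH5 had 3 to 14. KRT19 (-1.40) and KRT7 (-0.84) fell while the leukocyte marker CD68 (0.67) and the fibroblast marker COL1A1 (1.27) rose on the log2 scale. The epithelial marker EPCAM had a positive log2 fold change (0.44, edgeR adjusted p 0.194) but was not called. VIM, a marker of the mesenchymal state, averaged 1810 CPM with the control siRNA and 1945 CPM after knockdown. It was not called either (0.10, edgeR adjusted p 0.492). PTPRC and DCN, the defining leukocyte and fibroblast markers, had 0 to 5 and 0 to 2 counts in a sample.

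Among the 10 genes, ADM, EGLN1 and HIF1A rose in si-METTL16 samples, and no gene of the group fell by the test. ADM was 2.26-fold higher, EGLN1 1.45-fold and HIF1A 1.17-fold. BNIP3 was lower in each si-METTL16 sample than in any si-NC sample but missed the threshold. CA9, VEGFA, NDRG1, ANKRD37 and KDM3A were not called, and EGLN3 had too few counts to be tested. The 3 called genes are 33.3% of the 9 tested, beside 35.9% of all tested genes, and the median log2 fold change of the 9 was 0.07 beside -0.0045 for all. The CPM of the groups did not overlap for 4 of the 9 genes, beside 50.9% of all genes. These shares are near those of the whole table. In bulk RNA, a change in the share of cells that express a gene and a change in the RNA of each cell cannot be told apart.

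**Figure D1:**
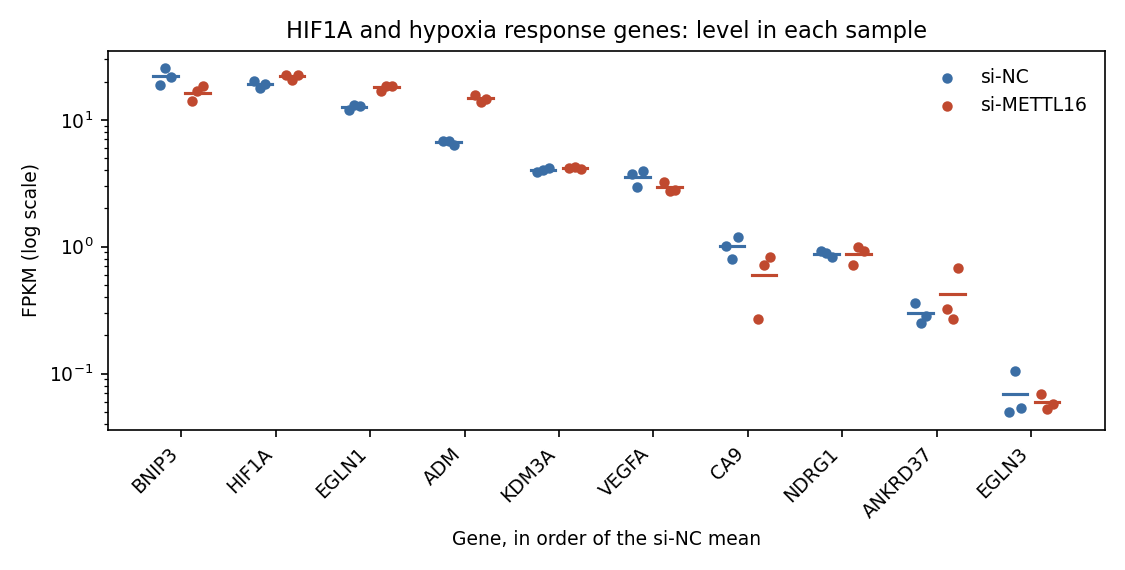
Level of each of the 10 genes on a logarithmic FPKM axis (counts scaled by gene length and by the total of the sample), with a point per sample, si-NC in blue and si-METTL16 in red, and a line at the mean of each group of 3. ADM and EGLN1 are separated between the groups, BNIP3 and HIF1A are separated by less, and EGLN3 lies far below the other genes in all 6 samples.

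Levels of different genes were compared in FPKM, which divides counts by gene length. In si-NC samples BNIP3 (22 ± 3.33 FPKM, SD, n = 3) and HIF1A (19.1 ± 1.09) led, and their samples overlapped. EGLN1 (12.6 ± 0.536) and ADM (6.63 ± 0.282) came next, each apart from its neighbours. KDM3A (4.02 ± 0.157) overlapped VEGFA (3.55 ± 0.524), and CA9 (1.01 ± 0.202) overlapped NDRG1 (0.881 ± 0.0486). ANKRD37 (0.298 ± 0.0578) and EGLN3 (0.0693 ± 0.0308) were the lowest and lay apart. In si-METTL16 samples the order at the top was HIF1A (22 ± 1.17 FPKM, SD, n = 3), EGLN1 (18 ± 0.843), BNIP3 (16.4 ± 2.21) and ADM (14.8 ± 0.971). There, BNIP3 overlapped both EGLN1 and ADM, and HIF1A stood above all of them.

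HIF1A, the oxygen-regulated alpha subunit (ENSG00000100644, GRCh38 chromosome 14 from 61695513 to 61748259), was measured at 195, 174 and 186 CPM in the control samples and at 223, 202 and 223 CPM in si-METTL16 samples. The lowest si-METTL16 sample was above the highest si-NC sample, by a small margin. Its log2 fold change was 0.23 (SE 0.068, 95% interval 0.066 to 0.38, adjusted p 0.0374 edgeR). This call was kept in 6 of 15 alternative analyses, with adjusted p between 0.0282 and 0.117, and was lost without si-METTL16 replicate 1 (0.109) or 3 (0.105) and without si-NC replicate 2 (0.117) or 3 (0.0983). The antisense genes HIF1A-AS1 and HIF1A-AS3 share exon bases with HIF1A and had at most 5 counts in a sample. A long noncoding RNA gene on the same strand shares 148 exon bases with HIF1A and had 7 to 37 counts.

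EGLN1, the main prolyl hydroxylase for the alpha subunit (ENSG00000135766, chromosome 1 from 231363751 to 231425044), was at 90.6, 98.3 and 96.3 CPM in si-NC samples. It reached 131, 141 and 141 CPM in si-METTL16 samples, all above every si-NC sample. The log2 fold change was 0.54 (SE 0.064, 95% interval 0.39 to 0.69, adjusted p 0.000913, edgeR), and the gene was called in all 15 alternatives. In GENCODE v44 another protein-coding gene model on the same strand shares 3004 exon bases with EGLN1. EGLN3, the hydroxylase that hypoxia typically induces (chromosome 14 from 33924231 to 34462774), had 8, 17 and 9 counts in si-NC and 11, 8 and 10 counts in si-METTL16 samples. These counts overlap, and without the filter on low counts its log2 fold change was -0.19 (SE 0.43, edgeR adjusted p 0.797). A change of EGLN3 was not detectable at this depth.

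ADM encodes adrenomedullin, a secreted vasodilator and angiogenic peptide (ENSG00000148926, chromosome 11 from 10304680 to 10307397). It was at 60.7, 60.7 and 56.2 CPM in si-NC samples and at 144, 126 and 132 CPM in si-METTL16 samples. The groups were far apart against a spread of 2.58 CPM (SD, n = 3) among si-NC samples and 9.3 CPM among si-METTL16 samples. The log2 fold change was 1.18 (SE 0.075, 95% interval 1.00 to 1.35, adjusted p 0.000122, edgeR), the 550th highest of 15089 genes. ADM was called in all 15 alternatives, with log2 fold changes between 1.05 and 1.22.

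VEGFA, the main angiogenic growth factor of the hypoxia response (chromosome 6 from 43770184 to 43786487), was at 92.7, 72.7 and 96.6 CPM in si-NC samples and at 81.3, 68.9 and 69.8 CPM in si-METTL16 samples. The si-NC replicate 2 lay among the si-METTL16 samples, so the groups overlapped. Its log2 fold change was -0.25 (SE 0.12, 95% interval -0.54 to 0.039, edgeR adjusted p 0.155). Without si-NC replicate 2 it was -0.37 and called (edgeR adjusted p 0.0352). The intervals of the log2 fold changes of ADM and VEGFA, both secreted HIF targets, did not overlap.

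BNIP3 encodes a mitochondrial outer membrane protein that recruits the autophagy machinery (ENSG00000176171, chromosome 10 from 131966455 to 131982013). It was at 130, 176 and 148 CPM in si-NC samples and at 98.7, 117 and 128 CPM in si-METTL16 samples. The highest si-METTL16 sample was just below the lowest si-NC sample. The log2 fold change was -0.40 (SE 0.13, 95% interval -0.72 to -0.086, edgeR adjusted p 0.0529). It was called in 4 of 15 alternatives, one of them without si-NC replicate 1 (log2 fold change -0.50, edgeR adjusted p 0.0337), and its adjusted p ranged from 0.0222 to 0.138 over all 15. The table lists 39 BNIP3 copies, which held 10.7% of the counts of BNIP3 and its copies together, nearly all in BNIP3P1. With the copies added, the level was 146, 200 and 166 CPM in si-NC samples and 108, 129 and 143 CPM in si-METTL16 samples, again without overlap.

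CA9, a membrane carbonic anhydrase that acidifies the cell surroundings (chromosome 9 from 35673856 to 35681159), had 46, 36 and 56 counts in si-NC samples and 12, 30 and 40 counts in si-METTL16 samples. The third si-METTL16 sample lay above the lowest si-NC sample, and the groups overlapped. The log2 fold change was -0.71 (SE 0.40, 95% interval -1.66 to 0.23, edgeR adjusted p 0.205), and without si-METTL16 replicate 1 it was -0.37. CA9 shares 571 exon bases with ARHGEF39 on the opposite strand, whose counts rose from 135, 130 and 195 to 285, 305 and 348 (log2 fold change 1.07, SE 0.16, edgeR adjusted p 0.00258). The use of strand in counting is not given in the sources used here, so reads of the 2 genes in the shared bases cannot be told apart.

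ANKRD37, an ankyrin repeat protein (chromosome 4 from 185396021 to 185400628), had 26, 18 and 21 counts in si-NC samples and 23, 18 and 52 counts in si-METTL16 samples. One si-METTL16 sample was high and the other two lay within the si-NC range. Its log2 fold change of 0.53 (SE 0.40, 95% interval -0.42 to 1.47, edgeR adjusted p 0.343) was 0.017 without that sample, si-METTL16 replicate 3. ANKRD37 shares 909 exon bases with UFSP2 on the opposite strand, which rose by a log2 fold change of 0.64 (SE 0.11, edgeR adjusted p 0.00381). Since the use of strand in counting is not given, reads of ANKRD37 and UFSP2 in the shared bases cannot be told apart either.

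NDRG1, a stress-response protein (chromosome 8 from 133237171 to 133302022), was at 15, 14.6 and 13.5 CPM in si-NC samples and 11.9, 16.3 and 15.1 CPM in si-METTL16 samples. KDM3A, a histone H3 lysine 9 demethylase (chromosome 2 from 86440647 to 86492716), was at 85.7, 89.7 and 92.5 CPM in si-NC samples and 94.0, 94.8 and 92.5 CPM in si-METTL16 samples. Both genes overlapped between the groups. The interval of the log2 fold change was -0.32 to 0.34 for NDRG1 (edgeR adjusted p 0.968) and -0.07 to 0.21 for KDM3A (edgeR adjusted p 0.396), and both intervals include 0.

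**Figure D2:**
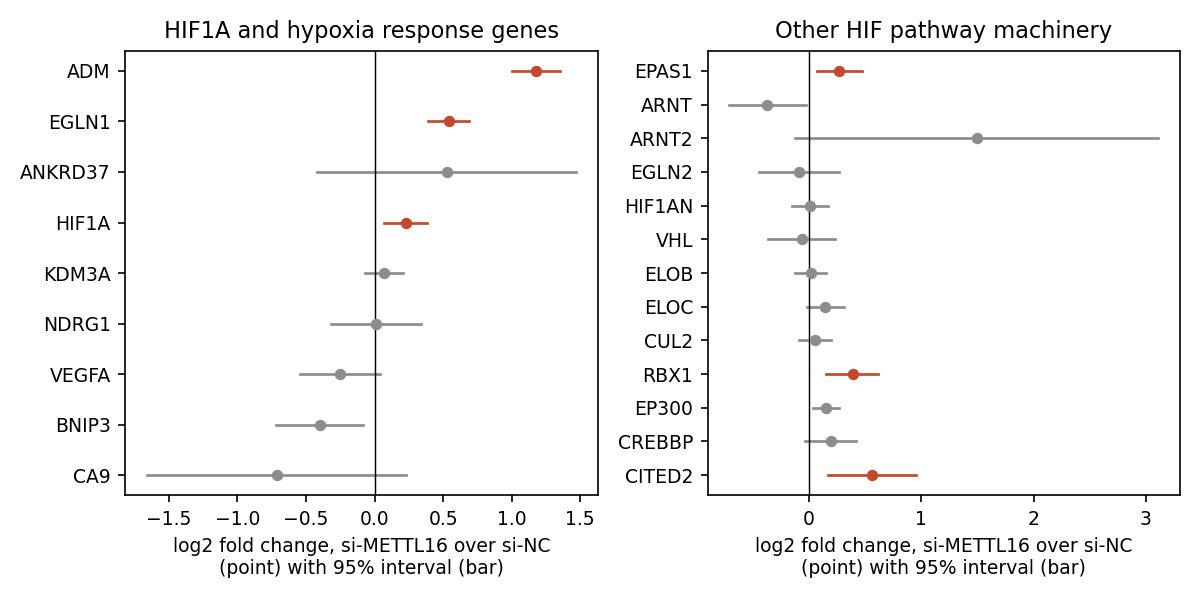
Log2 fold change of si-METTL16 over si-NC samples (points) with its 95% interval (bars), at left for the 9 tested hypoxia genes and at right for 13 other genes of the HIF pathway machinery. Red marks genes called higher at an edgeR adjusted p under 0.05 and grey marks genes not called. ADM at 1.18 is the highest point at left, but its interval (1.00 to 1.35) lies within the wide interval of ANKRD37 (-0.42 to 1.47). EPAS1, RBX1 and CITED2 are the called genes at right.

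Most genes of the HIF machinery outside the group were not called. Of 13 such genes with enough counts, 3 rose and none fell, which is 23.1% beside the 35.9% of all genes called in either direction and the 18.4% called higher. Their median log2 fold change was 0.14. EPAS1, the alpha subunit of HIF-2, had a log2 fold change of 0.27 (SE 0.085, edgeR adjusted p 0.0436). RBX1, the RING subunit of the VHL ubiquitin ligase, had 0.39 (SE 0.10, edgeR adjusted p 0.0211), and CITED2, which competes with HIF for its co-activators, had 0.56 (SE 0.17, edgeR adjusted p 0.0362). CITED2 was at 128 ± 30.2 CPM (SD, n = 3) in si-METTL16 samples, with 1543 counts in replicate 1 and 2349 and 2526 in the others. These calls depended on the setting, as EPAS1 was called in 4, RBX1 in 11 and CITED2 in 7 of 15 alternatives.

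Among the machinery genes that were not called, the beta subunit ARNT had a log2 fold change of -0.37 (edgeR adjusted p 0.0873), with si-NC samples at 1017, 1147 and 786 counts and si-METTL16 samples at 736, 713 and 771. ARNT was called lower in 1 of 15 alternatives, without si-NC replicate 3 (edgeR adjusted p 0.00995). Its relative ARNT2 was low, with 1 to 22 counts in a sample (log2 fold change 1.5, SE 0.69, edgeR adjusted p 0.131). HIF3A had at most 3 counts in a sample. The hydroxylases EGLN2 (-0.083) and HIF1AN (0.0066), the latter acting on the transactivation domain, had fitted values within 0.1 of 0 on the log2 scale. VHL (-0.061), its partners ELOB (0.017) and ELOC (0.14) and the scaffold CUL2 (0.054) were not called, nor were the co-activators EP300 (0.15, edgeR adjusted p 0.0518) and CREBBP (0.20).

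The ligands and receptors around VEGFA and ADM were also listed, 15 genes in all, of which 9 had enough counts. Beside ADM, the VEGF co-receptors NRP1 and NRP2 rose, and VEGFB, a further VEGF family ligand, fell. NRP1 had 1272, 1475 and 1576 counts in si-NC and 2647, 2172 and 2929 in si-METTL16 samples, without overlap (log2 fold change 0.88, SE 0.095, edgeR adjusted p 0.000634). NRP2 was sparse, with 36 to 50 counts in si-NC and 58 to 133 in si-METTL16 samples (log2 fold change 1.40, SE 0.34, edgeR adjusted p 0.018), and was called in 9 of 13 alternatives. VEGFB went from 598, 614 and 600 to 428, 326 and 490 counts (log2 fold change -0.51, SE 0.11, edgeR adjusted p 0.0122). The other ligands VEGFC (-0.24), PGF (-0.88, edgeR adjusted p 0.0858) and ADM2 (-0.90, edgeR adjusted p 0.054) were not called. ADM2 was called lower in 6 of 15 alternatives, with adjusted p between 0.0127 and 0.154. The adrenomedullin receptor CALCRL had 10 to 27 counts in a sample (log2 fold change -0.15), its partner RAMP3 had 0 counts in every sample, and RAMP1 and RAMP2 had at most 12 and 5. The VEGF receptors FLT1, KDR and FLT4 had at most 4, 16 and 6 counts and were not tested. The 4 called genes are 44.4% of the 9 tested, beside 35.9% of all genes, and without ADM and VEGFA 3 of 7 were called.

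**Figure D3:**
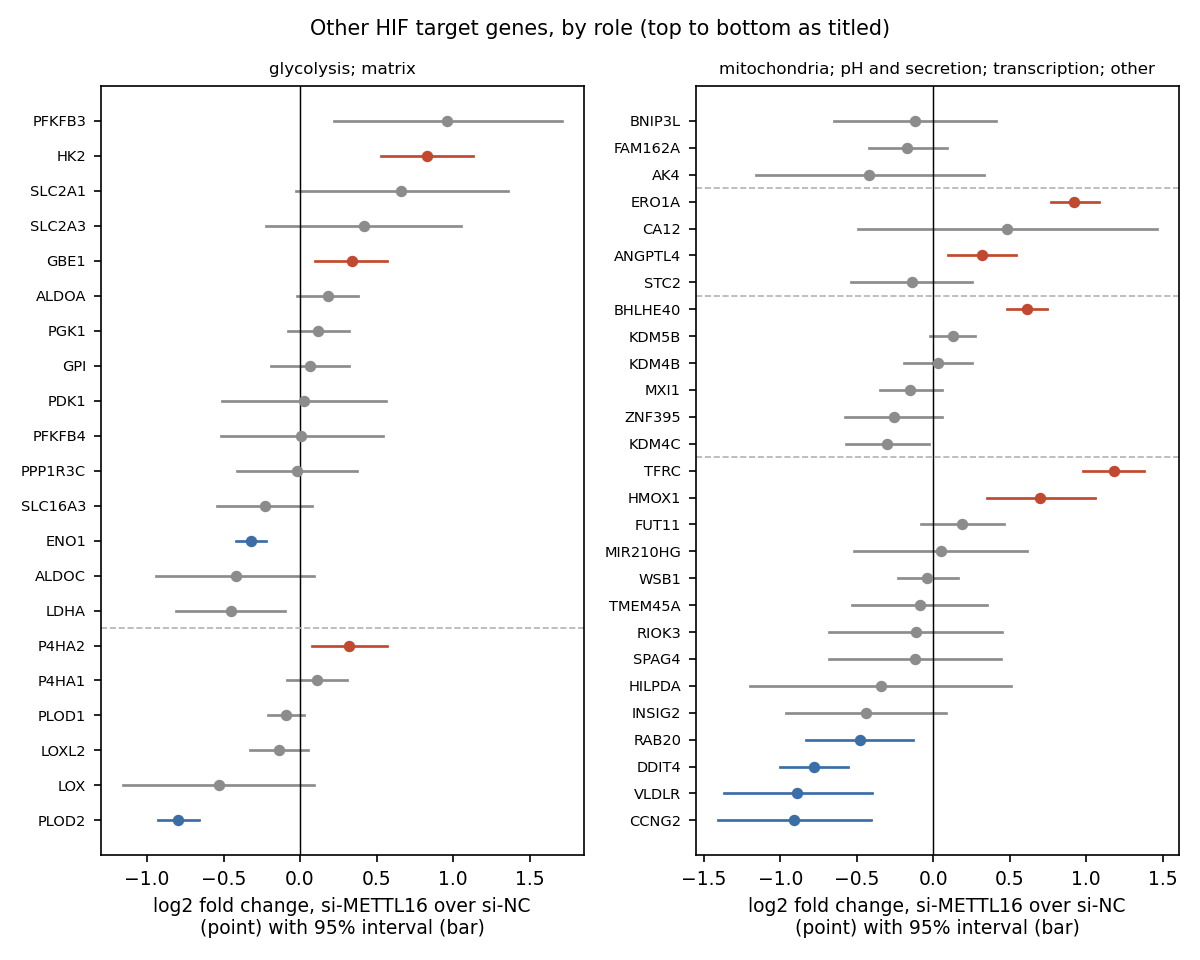
Log2 fold change of si-METTL16 over si-NC samples (points) with its 95% interval (bars) for 48 of the 49 tested genes of the HIF target list, grouped by role with dashed lines between roles. Red marks the 8 genes called higher, blue 6 of the 7 called lower and grey the 34 not called. Red and blue both occur among matrix genes, genes of glucose uptake and glycolysis, and stress genes.

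Further HIF targets, listed from general knowledge, moved in both directions. Of 50 genes, 49 were tested, 8 rose and 7 fell, which is 30.6% called beside 35.9% of all genes, with a median log2 fold change of -0.09. TFRC, the transferrin receptor, rose the most among them (1.18, SE 0.084, edgeR adjusted p 0.000162), from 365 ± 41.9 to 828 ± 14.8 CPM (SD, n = 3). ERO1A, an oxidase of the endoplasmic reticulum, had 0.92, the hexokinase HK2 had 0.83, the haem oxygenase HMOX1 had 0.70 and the transcriptional repressor BHLHE40 had 0.61. At the other end, CCNG2, an unconventional cyclin, had -0.91 (called in 14 of 15 alternatives) and the lipoprotein receptor VLDLR had -0.89. PLOD2, a collagen lysyl hydroxylase, had -0.80, and DDIT4, an inhibitor of mTORC1, had -0.78. CXCR4, a chemokine receptor, had 3 to 11 counts in a sample and was not tested.

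By role, 3 of 15 genes of glucose uptake and glycolysis were called. This and the following counts stand beside 18.4% of all genes called higher and 17.5% called lower. The role is broad, and not all of its genes, called glycolysis genes below for short, act in glycolysis itself. GBE1 is one that does not. Beside HK2, GBE1 (0.34) rose and ENO1 (-0.32) fell, the last of these from 2863 ± 60.7 to 2296 ± 38.0 CPM (SD, n = 3); GBE1 and ENO1 are named after their values were seen. HK2 and ENO1 were called in all 15 alternatives and GBE1 in 8 of 15, with adjusted p up to 0.105 (edgeR or an alternative test). Of 7 matrix genes, 1 rose and 2 fell, and of 3 mitochondrial genes none was called. Of 4 genes of pH and secretion 2 rose, and of 6 transcription and chromatin genes 1 rose. Of 14 tested stress, lipid and other genes, 2 rose and 4 fell. The matrix gene P4HA2 was called in 5 and the secretion gene ANGPTL4 in 7 of 15 alternatives, and both are named after their values were seen.

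Paralogues of the hypoxia genes had values in both directions. NDRG2 fell by 1.55 on the log2 scale (SE 0.40, edgeR adjusted p 0.0201) from 27, 59 and 29 to 13, 10 and 15 counts, and was called in 10 of 13 alternatives, while NDRG3 (-0.087) and NDRG4 (-0.16) were not called. KDM3B, the closest relative of KDM3A, rose from 97.0 ± 1.3 to 120 ± 4.55 CPM (SD, n = 3) with a log2 fold change of 0.31 (SE 0.058, edgeR adjusted p 0.00593). JMJD1C (0.36, edgeR adjusted p 0.107), BNIP3L (-0.12, edgeR adjusted p 0.714) and CA12 (0.48, edgeR adjusted p 0.4) were not called, and CA2 had 8 to 17 counts and was not tested. Whether the fold changes of paralogues differ from each other was not tested.

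The spread among samples of a group was not the same for all hypoxia genes. In 2 of the 9 tested genes, EGLN1 and BNIP3, replicate 1 was the lowest sample of both groups, beside 13.7% of all genes. Replicate 2 was the lowest of both groups in 3 of the 9, HIF1A, VEGFA and ANKRD37, beside 12.3% of all genes, so the hypoxia genes had no single lowest replicate. Among the 15 glycolysis genes of the target list, in contrast, replicate 1 was lowest in both groups for 11, or 73.3%, and replicate 2 for 0. Over all 49 tested target genes it was lowest in both groups for 16, or 32.7%, and no other role was counted on its own. The median deviation of the 15 glycolysis genes from the group mean was -0.14 on the log2(CPM + 0.5) scale in replicate 1 of each group. SLC2A1, the main glucose transporter, had 306, 766 and 603 counts in si-NC and 767, 783 and 1040 in si-METTL16 samples, with a log2 fold change of 0.66 (SE 0.29, edgeR adjusted p 0.12). SLC2A1 is named here for its spread, after its values were seen. What the samples numbered 1 had in common was not stated, and the part of this pattern in the fold changes was not tested.

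**Figure D4:**
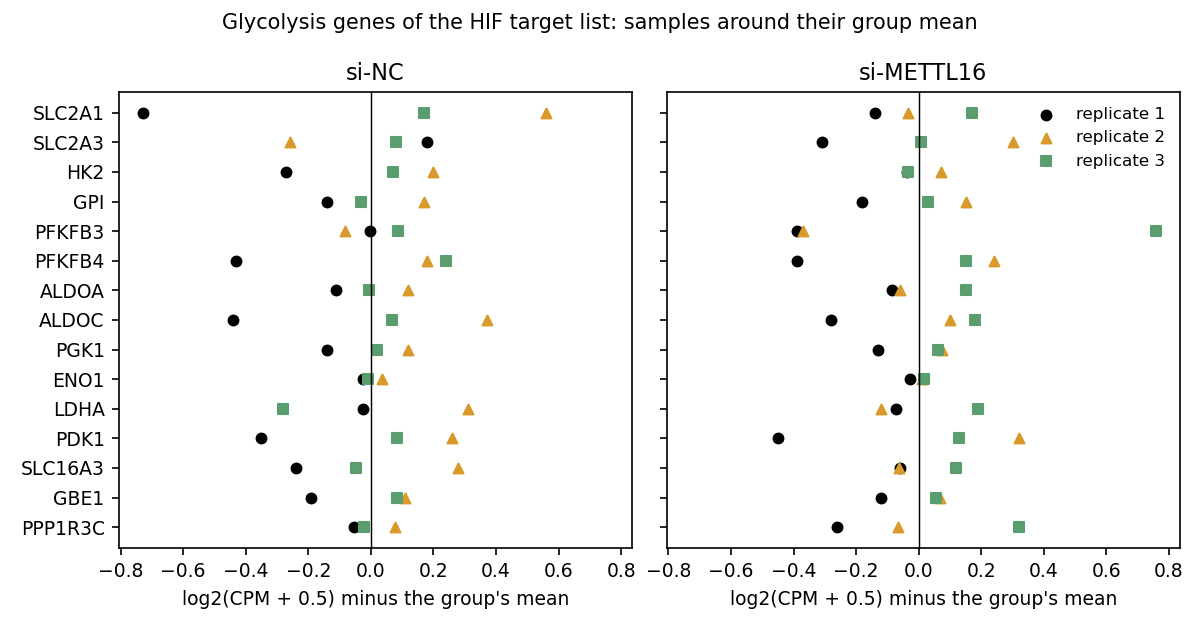
Deviation of each sample from the mean of its group, as log2(CPM + 0.5), for the 15 genes of glucose uptake and glycolysis in the HIF target list. The si-NC samples are at left and the si-METTL16 samples at right. Black circles are replicate 1, orange triangles replicate 2 and green squares replicate 3, and replicate 1 is the leftmost point of both panels for 11 genes.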

How the data were processed

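RNA-seq of 6 PANC-1 samples was used, 3 si-NC and 3 si-METTL16, grouped and numbered by their titles. The authors deposited raw read counts per gene, which are whole numbers without normalization. The authors also deposited FPKM values, which are counts scaled by gene length and sample total; for 11547 genes the gene length that a count and its FPKM imply varied by no more than 0.00183% across samples. The submitters' processing notes name GRCh38, HISAT2 2.0.4 and StringTie 1.3.0 without roles. The counting program, annotation release and use of strand are not given in the sources used here.

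Counts were scaled by TMM and filtered with filterByExpr (minimum count 10, minimum total 15), which left 15089 of 58735 genes. The groups were tested by quasi-likelihood (glmQLFit, then glmQLFTest; edgeR 4.0.16, R 4.3.3), p-values were adjusted after Benjamini and Hochberg, and 0.05 was the threshold. A count test was used because raw counts were deposited, while the study's methods name limma, which was run as an alternative. Each standard error is the fold change over the root of its F value, and 95% intervals from the t distribution. The common biological coefficient of variation was 16.5%. With 3 samples against 3, exact permutation of the labels gives a single gene a two-sided p of 0.1 at the lowest, and none is given. Values from a single sample carry counting error as well, and depth limits genes under about 10 counts.

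Alternatives were DESeq2 1.42.0 (its Wald test, and its size factors in edgeR), library totals alone, no filter, at least 10 counts in every sample, limma 3.58.1 on voom values and on log2(FPKM + 1) or log2(FPKM + 0.1) where the mean FPKM was 1 or more, a block for the replicate number, omission of each sample in turn, and an adjusted p under 0.01. The code was tested on simulated counts. The genes and lists were chosen with earlier results of these data known. Named genes were the 10 genes, METTL16, their paralogues, tested genes of the machinery and ligand lists, and the 5 highest and 5 lowest called genes of the target list with those not tested; exceptions are marked, and 1 gene of the target list is counted but not reported here. Gene ends are those of the deposited table, and 4 of the 10 genes have the same ends in GENCODE v44, which gave the overlapping genes. Pairs of samples were checked for duplication and none agreed within counting noise.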

Additional observations from a re-analysis of the deposited data

How the results depend on the processing

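ADM, EGLN1 and METTL16 kept their direction and their call in all 15 alternatives, and CA9, ANKRD37 and KDM3A stayed uncalled with the same sign in all of theirs. The log2 fold change of HIF1A kept its sign but not its call with the DESeq2 Wald test (0.22) and no filter on low counts (0.22), with library totals alone (0.20), and with limma on log2(FPKM + 0.1) (0.20) and log2(FPKM + 1) (0.19). Leaving out 1 sample gave 0.18 to 0.27 for HIF1A, -0.37 to -0.17 for VEGFA, -0.091 to 0.13 for NDRG1 and -0.50 to -0.29 for BNIP3. NDRG1, never called, turned sign with library totals alone (-0.012), limma on voom values (-0.0023) and the replicate block (-0.00041), and without si-METTL16 replicate 2 (-0.091), si-METTL16 replicate 3 (-0.023) or si-NC replicate 3 (-0.037). BNIP3 became called with the DESeq2 Wald test (-0.41), library totals alone (-0.42) and the replicate block (-0.40). The machinery list, 5 genes called, gave 3 with the DESeq2 Wald test, library totals alone and log2(FPKM + 0.1), 2 with log2(FPKM + 1) and no filter, 1 at an adjusted p under 0.01, 1 to 4 with 1 sample left out, and 6 with limma on voom values and with at least 10 counts in every sample. At that stricter threshold 8 target genes, 2 ligands and receptors and 3035 of all genes were called. The cause of these shifts was not tested.

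Both groups carry the numbers 1 to 3, but same-numbered samples deviated together only weakly (correlations 0.0253, 0.0371 and 0.0298 across genes, which are not independent replicates), so the fit with the replicate block is only one of the alternatives. It is counted in the numbers of alternatives of each gene and gave the lowest adjusted p of HIF1A, 0.0282. Each sample correlated best with its own number, while pairs of unlike number reached -0.0388. The deviations are from group means, so these correlations depend on each other. Their order is at most a hint from the data and not the design. With the block, 4 hypoxia genes were called in place of 3, and 5013 of all genes in place of 5418. The block left 4 of the machinery list, 14 of the target list and 5 of the ligand and receptor list called. The depth of these libraries limits EGLN3, ANKRD37 and CA9 most, with at most 56 counts in a sample.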

Other observations

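The share of RefSeq promoter windows that held ACGTG or GCGTG was 62.8% for genes called higher and 58.4% for genes called lower in si-METTL16 samples, beside 61.1% for all tested genes. For ACGTG alone the shares were 25.9% and 24.7%, and for GCGTG alone 50.2% and 46.6%. These are descriptions of letters in windows of 300 bases, and no test was made on them.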
